A study of Mus musculus with 18 samples.

Results

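The 417 genes described here are the mouse genes still carried on the array under the name of a RIKEN testis cDNA clone, with one of the clone prefixes 4921, 4922, 4930, 4931, 4932 or 4933. They were chosen by name alone, without regard to signal, from 18193 genes that have a probe set annotated to that gene only. Each gene is represented by its brightest such probe set over all 18 arrays. The study measured total RNA of whole testes on an Affymetrix whole-genome mouse expression array, in 4 groups. The groups were repro9/repro9 mutants at 17 days post partum (dpp; n = 5), wild type (wt) at 17 dpp (n = 5), repro9/repro9 mutants at 14 dpp (n = 5) and wt at 14 dpp (n = 3). The design text of the series ties 14 dpp to testes with many early to mid pachytene spermatocytes, and 17 dpp to the presence of late pachytene and diplotene cells. No group carries a transgene or drug treatment in the labels, strain and pooling are not given there, and nothing says whether replicates came from separate animals, so p-values measure the spread between these arrays. The testis is a mixture of cells: in such bulk RNA, fewer cells of a type and less RNA per cell cannot be told apart.

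RIKEN clone names were given to full-length mouse cDNAs whose genes had no other name, and the prefix records the library the clone came from. Testis libraries contributed many of them because male germ cells in meiosis transcribe an unusually broad share of the genome, including long non-coding RNAs (lncRNAs) and the long precursors of pachytene piRNAs. repro9 is an allele of Mybl1, which encodes A-MYB, a transcription factor of male germ cells that binds MYB-type DNA motifs and is needed for pachytene spermatocytes to complete meiosis.

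By the reference annotation (RefSeq, GRCm38.p6), 383 of the 417 genes were found by Entrez ID. Of these, 286 were lncRNAs, 85 were protein coding, 8 were transcribed pseudogenes, 3 were of the class misc_RNA and 1 was a pseudogene. The remaining 34 were not matched. "Uncharacterised" therefore holds for the symbol and not for every gene, since some have a name among their RefSeq synonyms (4930447C04Rik is also Six6os1). They were dim as a group: the median of their mean signals was 32.3, against 215 over all 18193 genes. A gene was tested where at least 3 arrays showed it above the 40th percentile of all signals on the same array (49.2 to 93.4). By that rule 239 of the 417 (57.3%) were tested and 178 were not, against 83.9% tested of all genes. Signals under that percentile range are close to background, so the fold change of a gene that falls into it depends on the background as well as on the RNA.

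Mybl1 itself had signals of 83.4 to 293 in mutants against 1076 to 3959 in wt at 17 dpp, and of 68.1 to 249 in mutants against 512 to 775 in wt at 14 dpp, so no mutant array reached a wt array. The arrays also fell into 3 sets that the labels do not mention, by the β-actin control probe sets, whose 3′ signal over their 5′ signal shows how complete the labelled RNA is. Set 1 (7 arrays, all groups, ratio 2.31 to 2.92) and set 2 (4 arrays of 14 dpp, 1.45 to 1.49) stand apart from set 3 (3 mutant and 4 wt arrays of 17 dpp, 103 to 125). Age is therefore partly tied to set, and values with the set as a block or within a set stand beside the results they touch. Of 10 marker genes of pachytene spermatocytes, 9 were lower in mutants at 17 dpp (median log2 difference −5.38) and 7 at 14 dpp (median −2.88). Their summed signal ran from 10816 to 39916 in mutants against 74935 to 174440 in wt at 17 dpp, and from 10476 to 13171 in mutants against 21395 to 29500 in wt at 14 dpp. At 17 dpp the 9 spermatogonial and 10 Sertoli cell markers tested had no call, with medians of 0.96 and 0.70, and their summed signals were 8277 to 19781 and 43530 to 65473 in mutants, against 3771 to 11937 and 30898 to 52745 in wt. Of the markers of peritubular myoid cells and of macrophages 1 each was higher in mutants at that age, and none of Leydig or endothelial cells or of the epididymis was called. Of 7 round spermatid markers tested 1 was lower (median −0.12), with a summed signal of 542 to 1964 in mutants against 1035 to 1650 in wt. The part of cell composition in the results below was not tested.

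At 17 dpp, 51 of the 239 tested genes were lower in mutants than in wt and none was higher (limma, adjusted p at most 0.05 over all 34764 tested probe sets). Those 51 are 21.3% of the tested genes, beside a background of 5.84% lower and 2.04% higher over all 15266 tested genes. A further 23 genes were lower and 6 higher at an unadjusted p under 0.05 without passing the adjusted threshold. With the called genes included, 74 of the 239 were lower at that p, beside 1533 lower and 2226 higher of all 15266 tested genes. Because the filter favours genes that are bright in at least 1 group, the same fit was made with no filter: it called 50 of all 417 genes lower (12%, beside 4.65% of all genes) and none higher, beside 1.23% of all genes. The median log2 difference (mutant minus wt) over the 239 was −0.43, against 0.26 over all tested genes. Putting all arrays on a common median moved the median over all probe sets by more than 0.1, to 0.11 from 0.25, and left the count at 51 lower and none higher, while the higher calls over all probe sets changed to 114 from 513 and the lower ones stayed at 1341.

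**Figure D1:**
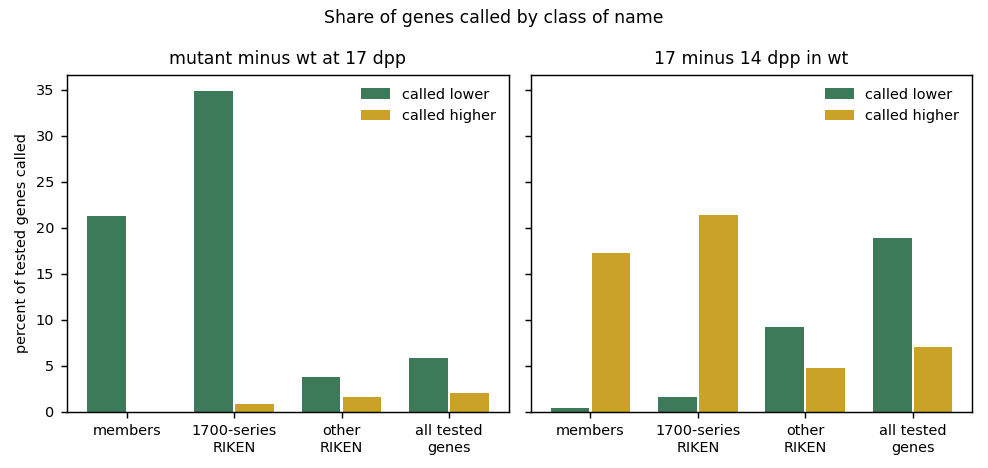
Percent of tested genes called lower (green) or higher (yellow) by limma, on a linear axis from 0, for the 239 tested RIKEN testis-clone genes ("members"), 126 genes with 1700-series RIKEN names, 447 with other RIKEN names and all 15266 tested genes. At left, mutant minus wt at 17 dpp: 21.3% of the members were lower, against 34.9%, 3.8% and 5.84% in the other classes; at right, 17 minus 14 dpp in wt, where 17.2% of the members were higher, against 21.4%, 4.7% and 7.05%, and 0.418% were lower, against 1.59%, 9.17% and 18.9%.

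The share of lower genes varied with the kind of RIKEN name. Among names with the prefix 1700, which RIKEN also gave to testis clones, 44 of 126 tested genes were lower (34.9%) and 0.794% were higher, and among all other RIKEN names 17 of 447 (3.8%) were lower and 1.57% higher, as the plot of shares by class of name shows. Within the testis-clone genes the type of transcript made little difference to the count: 34 of 151 tested lncRNAs (22.5%) and 14 of 60 tested protein-coding genes (23.3%) were lower, as were 3 of the 20 tested genes that the reference did not match. Other genes of the same types were called lower less often in these arrays: 58 of 654 other lncRNAs (8.87%) and 773 of 14182 other protein-coding genes (5.45%). These shares are descriptions, and the differences between classes were not tested.

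The 51 differences ran from −7.57 to −1.10 on the log2 scale, with a median of −3.04. For 39 genes the geometric means differed by more than 4-fold and for 13 by more than 16-fold. On 45 of the 51 the 5 mutant arrays all lay below the 5 wt arrays. Without the filter that held for 50 of the 417 (12%), beside 4.26% of all 18193 genes, and the reverse for 1 (0.24%, beside 1.78%). In wt at 17 dpp, 48 of the 51 were above the 40th percentile on every array, and in mutants at 17 dpp 9 were above it on every array and 12 on none. The median geometric mean was 58.6 in mutants against 459 in wt.

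The largest difference was that of 4930544G11Rik, a protein-coding gene on chromosome 6. It had signals of 4.75, 28.5, 22.3, 122 and 6.79 in mutants at 17 dpp and 5286, 3440, 3344, 1341 and 7539 in wt. The groups did not overlap, and 4 of the 5 mutant arrays were below their own 40th percentile, with 1 higher array at 122. Its geometric mean was 19.0 in mutants against 3612 in wt, a difference of −7.57 ± 0.83 on the log2 scale (SE; limma adjusted p = 7.68e-06).

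4932414N04Rik, a protein-coding gene on chromosome 2, was next. Its signals were 12.7, 6.53, 22.1, 7.90 and 6.71 in mutants at 17 dpp, against 1660, 943, 1012, 480 and 1923 in wt. All 5 mutant arrays were at background level, and the lowest wt array stood well above every mutant array (−6.76 ± 0.51, limma adjusted p = 1.27e-07).

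Of the 12 non-overlapping genes with the largest differences, 9 are lncRNAs in the reference. 4921525O09Rik on chromosome 13 had 24.5, 9.91, 71.9, 93.3 and 68.3 in mutants at 17 dpp, against 2978, 1576, 1495, 1661 and 3395 in wt (−5.68 ± 0.52, limma adjusted p = 9.73e-07). 4933406F09Rik on chromosome 14 had 78.2, 78.6, 57.3, 258 and 26.6 in mutants and 3392, 3539, 3725, 2487 and 7448 in wt (−5.67 ± 0.53, adjusted p = 1.34e-06). In both, every wt array was far above every mutant array, and some mutant arrays kept a signal above the 40th percentile (2 of 5 and 3 of 5 arrays). A second tested probe set of 4921525O09Rik was also lower, by a smaller difference (−2.86, adjusted p = 0.0141). 4930403D09Rik on chromosome 11 had 10.3, 18.04, 30.0, 81.0 and 19.3 in mutants and 2040, 1092, 746, 457 and 3804 in wt (−5.66 ± 0.77, adjusted p = 8.27e-05). Its wt arrays spread over a wide range, with the lowest at 457, and no mutant array passed its own 40th percentile.

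The other 7 of these 12 genes followed the same layout at wt means of 144 to 2170. 4930465K10Rik (chromosome 18) averaged 11.3 in mutants against 491 in wt, the strongest remaining difference at −5.44. 4933432K03Rik (chromosome 7) averaged 25.8 against 899 in wt (−5.12), but a second tested probe set of the gene gave −0.44 (limma adjusted p = 0.783), so its probe sets disagree. 4930568A13Rik, which the reference did not match, averaged 28.8 in mutants against 764 in wt (−4.73). The lncRNAs 4932702P03Rik and 4930455J16Rik, both on chromosome 13, differed by −4.54 and −4.35, with wt means of 348 and 144. 4930455J16Rik is the dimmest of the 12 in wt, and 1 wt array, at 35.4, was under its own 40th percentile. 4931408D14Rik and 4933401H06Rik complete the list and are described with the change between ages.

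Protein-coding members included the brightest. 4930579G24Rik on chromosome 3 had 447, 465, 1100, 864 and 1112 in mutants at 17 dpp and 4964, 8790, 8225, 7772 and 13467 in wt. All arrays of both genotypes were well above background, and the lowest wt array was more than 4 times the highest mutant array, so this difference of −3.48 ± 0.30 (limma adjusted p = 6.1e-07) does not rest on signals near background. 4930453N24Rik on chromosome 16 had 2627, 2557, 1867, 1430 and 2031 in mutants and 6584, 6061, 5156, 2842 and 7257 in wt (−1.37 ± 0.26, adjusted p = 0.00275). Its mutant arrays were all lower than its wt arrays by a smaller margin. Its second brightest probe set was also called lower (−1.54, limma adjusted p = 0.0138). Dimmer tested ones were not (−0.10, adjusted p = 0.937, and −0.90, adjusted p = 0.379), and the mean of its probe sets differed by −0.57 (adjusted p = 0.370). Outside the rule for named genes, and chosen after their values were seen, the other 10 protein-coding genes called lower are 4930444P10Rik (−3.40), 4931417E11Rik (−3.72), 4930503E14Rik (−3.38), 4930550C14Rik (−3.07), 4933412E24Rik (−2.72), 4930503L19Rik (−2.42), 4921539E11Rik (−2.40), 4921536K21Rik (−1.80), 4921524J17Rik (−1.57) and 4930524B15Rik (−1.31). Among these, 4921524J17Rik was bright in both genotypes, averaging 1770 in mutants against 5272 in wt, while 4921539E11Rik averaged 15.8 against 83.4 and is the dimmest in wt of the 51.

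**Figure D2:**
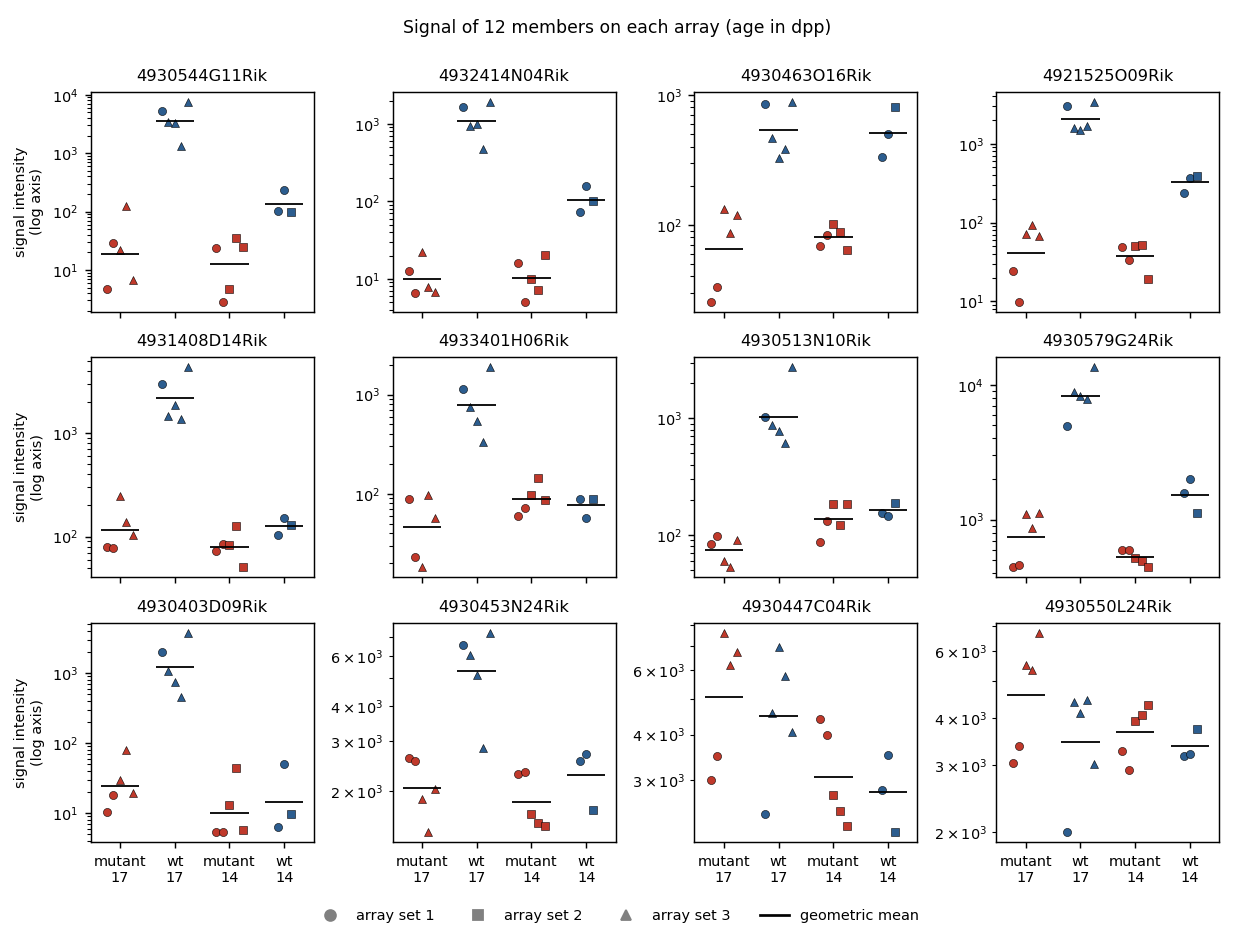
Signal intensity (log axis) of 12 named genes on each of the 18 arrays, mutants in red and wt in blue at 17 dpp and then at 14 dpp; circles, squares and triangles mark array sets 1, 2 and 3, and the bar is the geometric mean. In the first 10 panels every mutant array of 17 dpp lies below every wt array of 17 dpp, as for 4930579G24Rik (447 to 1112 in mutants, 4964 to 13467 in wt), whereas 4930447C04Rik and 4930550L24Rik overlap.

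Since array sets split the 17 dpp groups unevenly (2 mutant arrays and 1 wt array in set 1, 3 mutant and 4 wt arrays in set 3), the genotypes were also compared within each set. Set 1 has a single wt array of 17 dpp, so the spread was pooled over all groups and sets of the 18 arrays, and that array is assumed to vary like the others. Over the 239 tested genes, 31 were called lower and none higher within set 1 (13% and 0%, beside 4.09% and 0.236% of all tested genes). Within set 3, 42 were called lower and 3 higher (4930524C18Rik, 4930550L24Rik and 4933416E14Rik; 17.6% and 1.26%, beside 8.69% and 7.18%). The sets share no array, but their tests share 1 estimate of each gene's spread, so the calls of the sets are not independent. Of the 42 lower within set 3, 41 were negative within set 1. How often the sets had the same sign over all tested genes was not counted. The 51 were negative in both sets, but they were chosen on these same arrays, so their direction there is a description. With the set as a block, all 51 remained lower, and the count became 60 lower and 4 higher (25.1% and 1.67%), beside 11.5% lower and 14.5% higher over all tested genes. The 4 that were higher with the block, named here after their values were seen, are 4921525D07Rik (1.35), 4933416E14Rik (1.19), 4932431P20Rik (0.86) and 4930550L24Rik (0.59). Of 18 further tested probe sets for 11 of the 51 genes, 17 were negative and 10 called lower. The exception in sign was the second probe set of 4933406K04Rik (0.05).

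**Figure D3:**
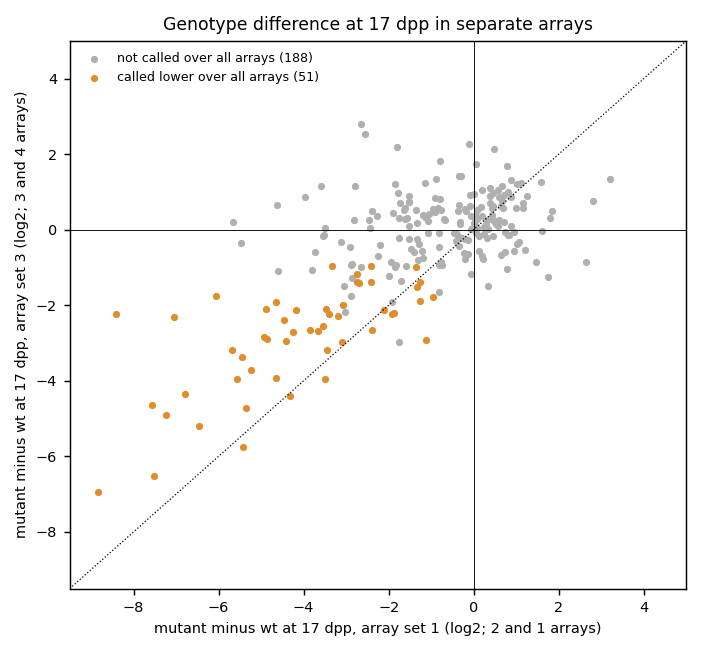
Log2 difference (mutant minus wt) at 17 dpp within array set 1 (x axis; 2 mutant arrays and 1 wt array) against array set 3 (y axis; 3 mutant and 4 wt arrays), 1 point per tested gene, with the dotted line at equal values. All 51 genes called lower over all arrays (orange), which were chosen on these arrays, lie at the lower left, negative in both sets, and the 188 others (grey) scatter around 0.

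At 14 dpp the 3 genes called were all lower in mutants. They are 1.26% of the 239, beside 0.321% lower and 0% higher over all tested genes, and with no filter 2 of 417 were called (0.48%, beside 0.258%). 20 genes were lower and 5 higher at an unadjusted p under 0.05, beside 305 lower and 61 higher of all 15266 tested genes. 4932414N04Rik had 15.9, 5.11, 9.93, 7.29 and 20.6 in mutants at 14 dpp and 72.3, 159 and 99.9 in wt, with no overlap (−3.33 ± 0.59, limma adjusted p = 0.014). 4921525O09Rik had 48.6, 33.2, 49.9, 51.6 and 19.2 in mutants and 238, 369 and 395 in wt (−3.10 ± 0.60, adjusted p = 0.0358). 4930463O16Rik, an lncRNA on chromosome 10, had 68.2, 83.2, 102, 88.6 and 63.4 in mutants and 332, 497 and 803 in wt (−2.67 ± 0.53, adjusted p = 0.0433). The call of 4921525O09Rik was not shared by its second probe set (−1.59, adjusted p = 0.999988) or by the mean of its probe sets (−2.34, adjusted p = 0.185). In all 3, the lowest wt array of 14 dpp was above the highest mutant array of that age.

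These 14 dpp calls rest on 3 wt arrays. Without wt 14 dpp replicate 2 or replicate 3 no gene of the 239 was called, and without replicate 1 a single gene was. Same-numbered mutant and wt arrays of 14 dpp deviated together in all 3 pairs (correlations 0.28, 0.35 and 0.39), each pair lying in 1 array set. With the replicate number as a block none of the 3 genes was called (limma adjusted p from 0.192 to 0.419). In that fit mutant 14 dpp replicates 4 and 5, which have no wt partner, add nothing to the difference. With the set as a block, 6 genes were called lower (2.51%, beside 0.583% lower and 0.00655% higher over all tested genes). The 3 added ones, named after their values were seen, are 4930579G24Rik (−1.42), the lncRNA 4921513H07Rik (−4.07) and the protein-coding gene 4930444P10Rik (−3.20). 4930579G24Rik had 598, 598, 520, 494 and 446 in mutants at 14 dpp and 1580, 2017 and 1124 in wt, again with no overlap.

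The 51 genes called lower at 17 dpp were then read at 14 dpp. The 14 dpp means are not part of the difference that chose them. The arrays of 14 dpp did enter the spread, the filter and the choice of probe set, so this reading is not independent. Of the 51, 46 were negative at 14 dpp. For 19 the difference was negative at an unadjusted p under 0.05 (limma), beside 305 of all 15266 tested genes. For 23, the mutant arrays all lay below the wt arrays. Over all tested genes that was so for 4.49%, and without the filter for 6.71% of the 417 and 3.89% of all genes. Their median log2 difference at 14 dpp was −0.88. It is not set against that at 17 dpp, on which they were chosen. The test of the difference between the ages, which is the interaction of genotype and age, called 3 genes, all with a more negative difference at 17 dpp (1.26%, beside 0.36% of all tested genes).

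4933401H06Rik, an lncRNA on chromosome 3, had the largest called interaction, at −4.29 ± 0.78 (limma adjusted p = 0.0308). It had 89.0, 22.9, 18.3, 97.2 and 57.2 in mutants and 1138, 756, 541, 335 and 1885 in wt at 17 dpp, and 60.3, 72.0, 98.1, 145 and 85.8 in mutants and 88.8, 56.6 and 89.4 in wt at 14 dpp. Only the wt arrays of 17 dpp were high, and the genotypes overlapped at 14 dpp. 4931408D14Rik, an lncRNA on chromosome 19, had 78.9, 78.3, 248, 138 and 104 in mutants and 2986, 1468, 1853, 1373 and 4315 in wt at 17 dpp, against 73.2, 85.4, 83.2, 126 and 51.1 in mutants and 104, 150 and 130 in wt at 14 dpp (interaction −3.56 ± 0.58, adjusted p = 0.0151). 4930513N10Rik, an lncRNA on chromosome 8, had 83.6, 97.2, 59.95, 53.3 and 91.4 in mutants and 1015, 871, 776, 619 and 2732 in wt at 17 dpp, against 87.4, 133, 183, 121 and 184 in mutants and 155, 146 and 189 in wt at 14 dpp (interaction −3.53 ± 0.55, adjusted p = 0.0116). In both, the 5 wt arrays of 17 dpp stood above all other 13 arrays. Under the array set block 11 genes had a called interaction (4.6%, beside 1.82% negative and 0.0786% positive over all tested genes), all 11 of them among the 51, and with the replicate number as a block 1 did (4930513N10Rik, adjusted p = 0.0395).

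**Figure D4:**
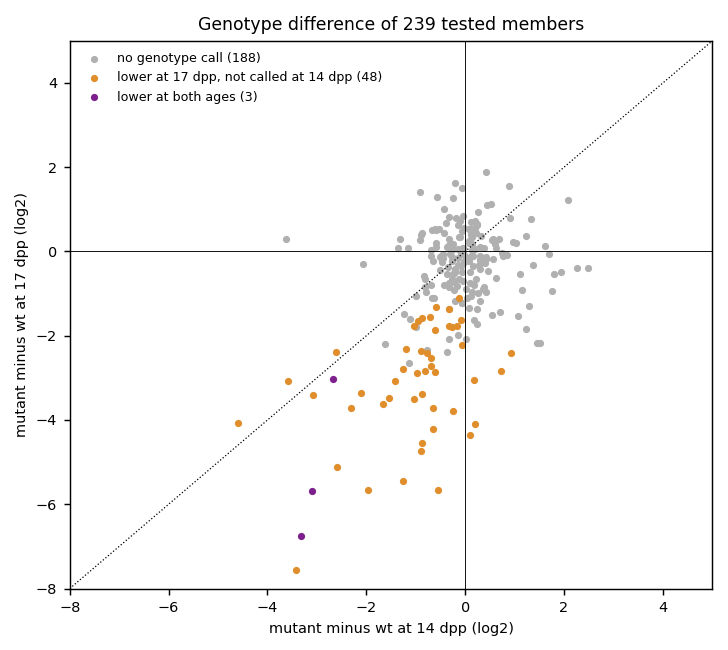
Log2 difference (mutant minus wt) at 14 dpp (x axis) against 17 dpp (y axis) for the 239 tested genes, with the dotted line at equal differences. The 48 genes called lower at 17 dpp only (orange) and the 3 called lower at both ages (purple) were chosen on the y axis, where they run from −7.57 to −1.10, so their place against the dotted line is a description; the 188 with no genotype call are grey.

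4930463O16Rik differed from the other 2 genes called at both ages in its wt signal, which was not called higher at 17 than at 14 dpp. Its difference was −3.04 ± 0.46 at 17 dpp and −2.67 ± 0.53 at 14 dpp, and the interaction was −0.36 ± 0.70 (limma adjusted p = 0.974). In wt its geometric mean was 535 at 17 dpp and 510 at 14 dpp, a difference of 0.07 ± 0.53 (adjusted p = 0.943). 4932414N04Rik and 4921525O09Rik were higher in wt at 17 dpp, with 1079 against 105 at 14 dpp and 2087 against 326. Their interactions of genotype and age (−3.43 and −2.58) were not called either.

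Onset in wt was read from the comparison of 17 with 14 dpp, which uses the same wt arrays of 17 dpp as the genotype comparison at that age, so these calls and the genotype calls are not independent. In wt, 41 of the 239 genes were higher at 17 than at 14 dpp and 1 was lower (17.2% and 0.418%), beside 7.05% higher and 18.9% lower over all tested genes. With no filter the counts were 40 and 1 of 417 (9.59% and 0.24%, beside 5.45% and 13.6%). The split over all probe sets depended on the scaling, with 1688 higher and 5750 lower as deposited but 2401 higher and 1315 lower on a common median, and the genes described here gave 49 higher and none lower on that median. Age is partly tied to array set: with the set as a block 27 were higher and 2 lower (11.3% and 0.837%, beside 4.83% and 4.57% of all tested genes), and 21 of the 41 remained called. The 2 lower ones are 4930448K20Rik (−3.51) and 4930562F07Rik (−2.37). Within set 1, which holds 1 wt array of 17 dpp and 2 of 14 dpp, all 41 were positive. The 41 were chosen on wt arrays that include these, so that direction is a description. The count of genes called between ages in wt also rests on single arrays: 18, 29 and 22 genes were called without wt 14 dpp replicate 1, 2 or 3.

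The steepest rise in wt was that of 4930403D09Rik. Its wt signals were 2040, 1092, 746, 457 and 3804 at 17 dpp, against 6.33, 51.2 and 9.70 at 14 dpp, where no array passed its 40th percentile (6.40 ± 0.89 on the log2 scale, limma adjusted p = 0.000382). 4930455J16Rik had 292, 97.9, 133, 35.4 and 454 in wt at 17 dpp and 3.09, 3.02 and 6.14 at 14 dpp (5.22, adjusted p = 0.00359). In both genes the ages did not overlap and the younger level was at background. 4930544G11Rik was present at 14 dpp, with 103, 230 and 99.1, and higher on every array of 17 dpp (4.76 ± 0.96, adjusted p = 0.00516). 4932702P03Rik averaged 348 at 17 dpp against 15.5 at 14 dpp (4.49, adjusted p = 0.00446). All 4 stayed called with the set as a block. The 1 gene called lower with age, the lncRNA 4931406H21Rik on chromosome 14, did not: its difference was −3.03 (adjusted p = 0.0435) over all arrays and −0.43 (adjusted p = 0.828) with the block.

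**Figure D5:**
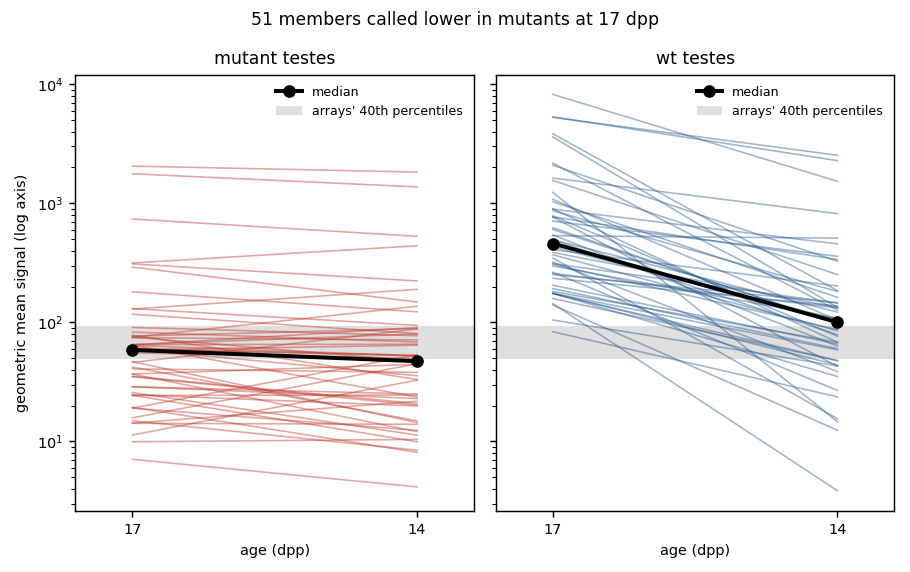
Geometric mean signal (log axis) at 17 and 14 dpp of the 51 genes called lower in mutants at 17 dpp, in mutant (left) and wt testes (right), 1 line per gene, the black line at their medians and the grey band at the arrays' 40th percentiles (49.2 to 93.4). The median was 58.6 at 17 dpp and 47.2 at 14 dpp in mutants, and 459 at 17 dpp and 100 at 14 dpp in wt. The genes were chosen on the 17 dpp difference.

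Among the 51 genes lower in mutants at 17 dpp, the wt signal at 14 dpp sorted them by onset. It was above the 40th percentile on all 3 wt arrays for 25 genes, on some for 11 and on none for 15. For the 25 present early, the median geometric means were 75.3 in mutants and 867 in wt at 17 dpp, and 79.9 in mutants and 182 in wt at 14 dpp. For the 15 not above it, the medians were 24.4 in mutants and 176 in wt at 17 dpp, and 22.9 in mutants and 42.7 in wt at 14 dpp. All 51 were positive between the ages in wt, 35 of them called, and 25 with the set as a block. Since the 51 were chosen on the wt arrays of 17 dpp, that direction is a description.

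The mutant arrays were not shared with the wt age comparison, but those of 17 dpp helped to choose the 51. The values of the 51 given below are therefore a description. In mutants no gene of the 239 was called between the ages (limma), beside 1.12% lower and 0.648% higher over all tested genes, and 24 of the 239 had an unadjusted p under 0.05, beside 4625 of all 15266. Other settings gave calls: 3 higher on a common median, beside 1395 higher and 329 lower of all 34764 tested probe sets. Leaving out the arrays of set 3 gave 8 lower, and array weights gave 15 lower and 8 higher. The shares over all genes in these last settings are not given here, so the counts are not read as particular to these genes. Of the 51, 35 were positive between the ages in mutants, with a median of 0.28, against 2.02 in wt. Within array set 1 alone, 24 of the 51 were positive in mutants with a median of −0.01, against 51 positive with a median of 2.56 in wt. Leaving out mutant 17 dpp replicate 1 or 2, the 2 mutant arrays of set 1 at that age, gave 9 and 6 calls in mutants (2 lower and 7 higher, 1 lower and 5 higher).

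6 genes were called higher with age in wt without a genotype call: 4930414F18Rik, 4930430F08Rik, 4930442E04Rik, 4930467D21Rik, 4930526F13Rik and 4930556M19Rik, named after their values were seen. The only bright one is the protein-coding gene 4930430F08Rik, which averaged 471 in mutants and 659 in wt at 17 dpp, and 231 in mutants and 217 in wt at 14 dpp. The other 5 are lncRNAs with wt means of 75.8 to 109.8 at 17 dpp. None of the 6 stayed called with the set as a block.

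The brightest genes without any genotype call were protein coding and were well above background in all 4 groups. 4930447C04Rik (Six6os1), which encodes a central element protein of the synaptonemal complex, had 3008, 3504, 7615, 6224 and 6737 in mutants and 2427, 4587, 6960, 5792 and 4061 in wt at 17 dpp (0.18 ± 0.32, limma adjusted p = 0.812). The genotypes overlapped, and without wt 17 dpp replicate 1 the difference was −0.04. 4932438A13Rik (Kiaa1109, Tweek) had 2616, 2933, 2584, 3005 and 2727 in mutants and 3242, 3845, 4932, 3676 and 4734 in wt (−0.54, adjusted p = 0.181). Its mutant arrays were all below its wt arrays, and with the set as a block it was called lower (−0.51, adjusted p = 0.00939). 4933434E20Rik averaged 2557 in mutants and 2222 in wt at 17 dpp, and 4931406C07Rik 1436 and 1204. For both, the 2 genotypes overlapped and set 1 was brighter than set 3.

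2 of these bright genes are X-linked, and X-linked genes are silenced as a chromosome in pachytene spermatocytes. 4933402E13Rik had 5261, 6027, 4624, 2762 and 7585 in mutants and 3833, 5036, 4605, 3401 and 3057 in wt at 17 dpp (0.35 ± 0.25, limma adjusted p = 0.484). 4930550L24Rik, whose synonym in the reference is mage-k1, had 3045, 3369, 5507, 5359 and 6721 in mutants and 1997, 4400, 4128, 4453 and 3020 in wt (0.41 ± 0.26, adjusted p = 0.4). Both overlapped between genotypes over all arrays, and with the set as a block 4930550L24Rik became higher in mutants (adjusted p = 0.00275). Of 16 X-linked genes among the 417, 8 were tested and none was called at 17 dpp without the block. 4 of the 8 differences were positive, and 8 of 8 with the block. Positive differences were common over all tested genes too. With the block their median was 0.22, and 3785 of 15266 were higher against 2332 lower (limma, unadjusted p under 0.05).

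Positions in the reference show what else these signals could hold. Of the 383 genes with coordinates, 195 overlap another annotated gene, as do 25 of the 48 called lower at 17 dpp that have coordinates. 13 of the 51 overlap a gene that was itself tested. In 4 cases such a gene was also lower: 4921536K21Rik lies over Dusp18 (−2.13), 4930426I24Rik over Hspa2 (−2.39), 4930503L19Rik over Stard6 (−3.63) and 4933401H06Rik over Slc39a8 (−2.46). Hspa2 encodes a heat shock protein of meiotic spermatocytes. The strand that each probe set reads was not examined, so signal of a gene and of its overlapping partner cannot be told apart in these 4. For the other 9 no overlapping gene was called: 4930403D09Rik, for example, overlaps Dock2, which differed by 0.27 (limma adjusted p = 0.885). The 48 with a position were spread over the autosomes, with 1 to 5 on each except chromosome 17, where 4 genes were tested.

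Because A-MYB binds MYB-type motifs, promoter windows of RefSeq (GRCm38.p6, 250 bases before to 50 after the start of the gene, 300 bases in all) were searched for the MYB core AACNG and for the longer AACTGNC, on both strands. Every AACTGNC holds an AACNG. Windows were given for 304 of the 417 genes. A gene was counted if any of its windows held the motif, and some genes have more than 1 window. AACNG was counted for 278 of the 304 (91.4%) and for 40 of 41 genes called lower at 17 dpp (97.6%). It was counted for 121 of 136 tested genes with no genotype call (89.0%) and for 82.4% of 27025 genes overall. Over all 32851 windows, AACNG was in 80.3% and AACTGNC in 12.8%. By gene, AACTGNC was counted for 52 of the 304 (17.1%), 10 of the 41 (24.4%), 19 of the 136 (14.0%) and 14.5% of all genes. So short a core occurs in most windows, and a match is a description and not a binding site. 6 windows are shown for the genes the results turn on, in lower case with every match in capitals: the 2 genes called at both ages that have a window, the gene with the largest difference, the gene with the steepest rise in wt, the brightest gene called lower, and 1 gene with a called interaction whose window holds neither motif. 4932414N04Rik (chr2:68657634-68657933, plus strand) has 1 core match and 4930463O16Rik (chr10:84488043-84488342, plus strand) has 4, one of them extended to AACTGNC at −214. 4930544G11Rik (chr6:65952321-65952620, plus strand) has 1. 4930403D09Rik (chr11:34299492-34299791, plus strand) has 4, with AACTGNC at −67 and, on the opposite strand, at −7. 4930579G24Rik (chr3:79628829-79629128, plus strand) has 1, an AACTGNC on the opposite strand 43 bases into the gene. 4930513N10Rik (chr8:95806580-95806879, plus strand) has none, which says only that these letters are not in the window. Positions count from the start of the gene to the match's leftmost base.
4932414N04Rik: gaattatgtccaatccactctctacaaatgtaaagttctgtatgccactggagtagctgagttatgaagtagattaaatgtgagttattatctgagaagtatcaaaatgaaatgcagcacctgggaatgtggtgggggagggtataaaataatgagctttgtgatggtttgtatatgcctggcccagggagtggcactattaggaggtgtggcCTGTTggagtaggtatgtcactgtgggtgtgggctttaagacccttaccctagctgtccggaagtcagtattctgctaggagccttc
4930463O16Rik: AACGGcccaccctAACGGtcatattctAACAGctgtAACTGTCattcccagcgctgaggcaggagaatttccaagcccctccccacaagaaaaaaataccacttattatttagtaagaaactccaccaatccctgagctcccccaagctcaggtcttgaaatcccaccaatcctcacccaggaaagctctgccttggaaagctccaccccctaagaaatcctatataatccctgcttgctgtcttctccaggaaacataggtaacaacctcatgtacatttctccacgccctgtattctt
4930544G11Rik: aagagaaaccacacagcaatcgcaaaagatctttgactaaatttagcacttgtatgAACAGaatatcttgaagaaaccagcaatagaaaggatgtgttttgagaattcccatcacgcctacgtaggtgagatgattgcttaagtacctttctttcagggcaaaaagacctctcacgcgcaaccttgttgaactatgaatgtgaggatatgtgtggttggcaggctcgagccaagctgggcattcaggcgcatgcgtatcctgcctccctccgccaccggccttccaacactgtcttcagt
4930403D09Rik: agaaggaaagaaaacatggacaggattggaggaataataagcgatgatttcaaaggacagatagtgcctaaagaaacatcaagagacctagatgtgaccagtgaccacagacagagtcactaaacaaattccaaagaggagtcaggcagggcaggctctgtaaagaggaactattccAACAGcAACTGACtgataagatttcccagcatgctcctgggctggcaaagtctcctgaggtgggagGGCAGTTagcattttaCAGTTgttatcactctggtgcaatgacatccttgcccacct
4930579G24Rik: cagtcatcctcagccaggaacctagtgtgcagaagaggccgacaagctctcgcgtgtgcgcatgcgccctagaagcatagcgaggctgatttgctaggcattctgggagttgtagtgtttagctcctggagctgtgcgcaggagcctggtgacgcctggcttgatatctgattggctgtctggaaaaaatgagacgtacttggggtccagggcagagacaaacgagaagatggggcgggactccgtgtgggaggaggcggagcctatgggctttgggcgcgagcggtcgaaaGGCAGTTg
4930513N10Rik: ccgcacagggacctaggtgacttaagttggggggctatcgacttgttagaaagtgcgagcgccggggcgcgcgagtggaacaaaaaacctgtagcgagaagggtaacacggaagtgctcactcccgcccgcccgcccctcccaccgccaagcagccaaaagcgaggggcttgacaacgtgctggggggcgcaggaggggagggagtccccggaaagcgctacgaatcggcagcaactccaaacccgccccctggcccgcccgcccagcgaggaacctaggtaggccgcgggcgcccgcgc

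The 178 genes that were not tested had median geometric means of 15.6 in mutants and 17.4 in wt at 17 dpp, and of 14.4 in mutants and 12.7 in wt at 14 dpp, all below the arrays' 40th percentiles. 76 of them were above that percentile on no array. Without the filter 2 of them were called lower at 17 dpp, and both had non-overlapping genotypes. These 2, named after their values were seen, are the protein-coding gene 4933421I07Rik, with 5.46, 12.1, 7.74, 12.01 and 4.98 in mutants and 322, 24.01, 48.6, 17.6 and 64.2 in wt, and the lncRNA 4933430H16Rik, with 4.69, 3.99, 13.5, 16.03 and 10.8 in mutants and 36.1, 53.9, 76.0, 65.4 and 49.8 in wt. Apart from 1 wt array of 4933421I07Rik at 322 these signals are at or near background. For the remaining 176, a difference was not detectable at this signal.

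Taking both ages together, the mean genotype difference was called lower for 41 genes and higher for 1 (17.2% and 0.418% of the 239, beside 4.1% and 0.288% over all tested genes). The 1 higher gene, 4921525D07Rik, was not matched in the reference. It had 45.2, 36.2, 94.4, 43.2 and 45.6 in mutants and 13.5, 33.1, 15.7, 20.9 and 29.5 in wt at 17 dpp, and 83.8, 51.8, 94.9, 50.8 and 79.4 in mutants and 21.4, 17.9 and 11.9 in wt at 14 dpp. The mutant arrays were above the wt arrays at both ages, but most of these signals lie at or below the 40th percentile of their arrays.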

How the data were processed

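Total testis RNA of 18 samples was hybridised to Affymetrix arrays of 45101 probe sets. The deposited values are linear signal intensities, 1 per probe set and array, which the authors made in Affymetrix GCOS (stated in the series' design text) with MAS5, per the submitters' processing notes, with no version stated. MAS5 scales each array separately, so a group-wide shift in total signal moves all genes. The level of scaling was not the same on all arrays: the trimmed mean signal was 393 in array set 3 and 498 on the other arrays. Array set 3 holds arrays of the older age only, so the main comparisons between ages include this difference in level. The deposited intensities were neither background-corrected nor normalized again.

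Control probe sets (64) were left out, log2 signals of the 34764 probe sets above the 40th percentile of their array on at least 3 arrays were fitted with limma 3.58.1 in R 4.3.3 (all 18 arrays, a mean for each of the 4 groups, intensity trend), and p-values were adjusted (Benjamini-Hochberg) over all 34764, with calls at 0.05, except for the methods' analysis of variance, called at 0.025. Differences are mutant minus wt, or 17 minus 14 dpp. The brightest probe set annotated to 1 gene alone stood for it. In the platform annotation, 34945 probe sets that are not controls named 1 gene, 932 several and 9160 none. Tables and figures were made with Python 3.11.15, pandas 2.3.3 and matplotlib 3.10.9. In data simulated for the 17 dpp comparison (34764 probe sets), 45 of 50 changes of −4, 26 of 50 of −2 and 4 of 50 of −1 (log2) were recovered. Of 50 changes of 3, 34 were recovered, and there were 6 false calls. The simulated noise was drawn separately for each probe set and without array sets, so these rates need not hold for the deposited arrays.

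Named genes were those called at 14 dpp; the 12 most negative at 17 dpp with non-overlapping arrays; up to 8 higher at 17 dpp, of which there were none; up to 6 with a called interaction; the 4 largest rises and up to 4 falls with age in wt; the 6 brightest with no genotype call; and the 2 called lower at 17 dpp that were brightest in wt. The genes, lists and tests were chosen with earlier results of these data known. Same-numbered mutant and wt arrays share a number in their labels only. Their deviations correlated positively in all 3 pairs at 14 dpp (0.28 to 0.39) and in 4 of 5 at 17 dpp (−0.23 in replicate 2). Replicate 2 of 17 dpp is the only pair split over array sets, with the mutant in set 1 and the wt in set 3. A shared number and a shared array set can therefore not be told apart. The main fit used no pairing, and an alternative fit took the replicate number as a block at both ages. Array sets were found in the signals and are not in the labels. Alternatives were other scalings, filters, an offset of 32, blocks for array set or replicate, subsets of arrays, array weights, the methods' two-way analysis of variance, other probe set rules and leaving out each array. Sequences came from RefSeq tables (GRCm38.p6); proteins were not analysed here.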

Additional observations from a re-analysis of the deposited data

Results flagged for a closer look

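5 results drew attention by a fixed criterion. 3 lncRNAs had a genotype difference that itself differed between the ages, by the interaction test in limma: 4933401H06Rik (−4.29, adjusted p = 0.0308), 4931408D14Rik (−3.56, adjusted p = 0.0151) and 4930513N10Rik (−3.53, adjusted p = 0.0116). All 3 were also called with the array set as a block. Within array set 1, which has 1 wt array of 17 dpp, none of the 3 was called.

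In 2 of 69 gene-by-group comparisons 1 array stood far from the rest of its group, where chance gives about 1 in 20. For 4931406H21Rik, mutant 14 dpp replicate 4 had a signal of 630 and the next highest array of the group 517. For 4931406C07Rik, wt 17 dpp replicate 1 had 2099 and the next highest 1076; it is the only wt array of 17 dpp in array set 1. Whether the array set accounts for it was not tested.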

How the results depend on the processing

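Against 51 calls at 17 dpp, the alternatives run gave 35 to 67, apart from array set 1 alone with 31, and leaving out single arrays gave 41 to 53. The other counts moved more. At 14 dpp, against 3 calls, quantile normalization gave 5, the array set block 6 with and without the filter, array set 2 alone 1, leaving out set 3 6, the mean of a gene's probe sets 6, and array weights 41 (27 lower, 14 higher). For the interaction, against 3, an offset of 32 gave 12, the array set block 11, the same block with no filter 10, set 1 alone 0, leaving out set 3 13, array weights 8, the methods' two-way analysis of variance 0 at its own threshold of 0.025 and 3 at 0.05 (4930513N10Rik, 4931408D14Rik and 4931415C17Rik; 4933401H06Rik had an adjusted p of 0.0545), and the mean of probe sets 5. Between ages in wt, against 42, the array set block with no filter gave 26, set 1 alone 11 and array weights 86. Between ages in mutants, against 0, a common median gave 3, quantile normalization 2, the array set block 1 with and without the filter, leaving out set 3 8 and array weights 23. These are counts of the genes described here, without the share over all tested genes, so a moved count need not be particular to them. Between ages in mutants, a common median called 1395 higher and 329 lower of all 34764 probe sets, and quantile normalization 563 and 410. The cause of these shifts was not tested.

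With the replicate number as a block, the paired fit gave 0 calls at 14 dpp, 51 at 17 dpp (50 lower, 48 of them among the 51) and 1 for the interaction; the age comparisons could not be fitted with it. Leaving out single arrays gave 0 to 4 calls at 14 dpp, 0 to 5 for the interaction (0 without wt 14 dpp replicate 1), 18 to 58 between ages in wt (18, 29 and 22 without wt 14 dpp replicate 1, 2 or 3, and 58, of which 12 lower, without wt 17 dpp replicate 1), 0 to 9 between ages in mutants and 32 to 43 for the mean over ages.

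Of 1074 values of named genes under the alternatives, 972 kept their direction and side of the threshold, 91 lost the call, 6 gained it and 5 changed sign. Many of these values could not change direction. Leaving out an array of a group outside the comparison keeps the difference, and genes with 1 probe set keep theirs under other probe set rules. The 972 are therefore not independent checks. The sign changes are in 2 genes without a call: 4930447C04Rik, mutant minus wt at 17 dpp, −0.0449 without wt 17 dpp replicate 1 (up to 0.3656 over single arrays left out), and 4933434E20Rik, mutant minus wt at 17 dpp, −0.0396 with the array set block with and without the filter, −0.0783 within set 3 and −0.0197 without mutant 17 dpp replicate 1 (up to 0.5085).

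The 3 wt arrays of 14 dpp limit every comparison that uses that age, and 178 of the 417 genes were too dim to test. Signals near background set the size of the largest fold differences. The array set block with no filter and the analysis of variance at 0.05 were chosen after seeing the data.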

Other observations

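A few of these genes have a known role under another name in the reference, and they were looked up after their values were seen. 4930432K21Rik is Brme1, which encodes a partner of BRCA2 in meiotic recombination. It averaged 182 in mutants and 175 in wt at 17 dpp (0.06, limma adjusted p = 0.969). 4933427D14Rik is Kiaa0753, which encodes a protein of centriolar satellites, and differed by −0.51 (adjusted p = 0.586). It was called lower with the array set as a block (−0.88). 4933407K13Rik is Dxz4, a repeat locus on the X chromosome that marks a boundary on the inactive X in females, and averaged 61.8 in mutants and 21.9 in wt (adjusted p = 0.258). 4930444F02Rik, an lncRNA with the synonym mpiR, differed by −4.07 (adjusted p = 0.00783), and a second probe set of it by −7.56 (adjusted p = 2.21e-06).

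In 6 cases a tested gene that overlaps one of these transcripts was called at 17 dpp where the RIKEN transcript had no call or was not tested, 5 of them lower in mutants and 1 higher. 4930467D21Rik overlaps Gk2, a testis glycerol kinase gene, which differed by −7.69 at 17 dpp (limma adjusted p = 1.22e-05), against −1.51 for the RIKEN transcript (adjusted p = 0.293). 4921518K17Rik, too dim to test, overlaps Ttc6, which differed by −4.49 (adjusted p = 7.71e-06), and 4933431J24Rik, also too dim, overlaps Gm31981 (−2.35, adjusted p = 0.0217). 4933431E20Rik, with no call, overlaps Eps8l3 (−2.67, adjusted p = 0.00141) and Gstm5 (−1.69, adjusted p = 0.009). Tmtc4, which overlaps 4930594M22Rik, was the one higher in mutants (0.81, adjusted p = 0.0316), against −0.18 for the RIKEN transcript (adjusted p = 0.914).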
